A study of Rattus norvegicus with 20 samples.

Results

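The genes described here encode the motors that carry cargo along microtubules: the kinesins, their light chains, the subunits of cytoplasmic dynein and the subunits of dynactin. They were chosen by symbol, as every gene whose name begins with Kif or Kifc, Klc, Dync1, Dync2, Dynll, Dynlr, Dynlt or Dctn in the pattern of a numbered family member, and which reached 5 reads in 10 or more of the 20 libraries. Of the 31038 genes listed, 66 had such a symbol and 59 of these passed the read filter, among 16605 genes that passed it in all. The 59 genes were 37 motor chains, 15 subunits called intermediate here, 6 small dynein light chains, and the non-motor kinesin-binding protein Kif1bp. The motor chains were 35 kinesins and the dynein heavy chains Dync1h1 and Dync2h1. The intermediate class held 4 kinesin light chains, 5 dynein intermediate and light intermediate chains and 6 dynactin subunits. Classes were set by symbol and not by protein size, so their names are not an order of size.

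RNA was taken from the medial prefrontal cortex (mPFC) of 20 male Sprague-Dawley rats, 10 given LSD at 0.16 mg/kg and 10 given saline. Injections were intraperitoneal, on alternate days over 90 days, and the labels place the tissue 3 weeks after treatment ended in rats aged 6 to 8 weeks when it began, for both groups alike. The text that accompanies the study gives another age and another interval, again without a difference between the groups. Each library came from the poly(A) RNA of 1 rat, so n = 10 rats in each group throughout, and the whole tissue piece was sequenced: fewer cells of a type and less RNA per cell cannot be told apart.

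Kinesins are ATP-driven motors, most of which move towards the plus ends of microtubules and so towards the tips of axons, while cytoplasmic dynein moves the other way and brings endosomes, mitochondria and signalling complexes back to the cell body. The conventional kinesin is a dimer of heavy chains with a pair of light chains that bind cargo, and dynein is a heavy chain dimer on which intermediate, light intermediate and small light chains are assembled. Dynein needs the dynactin complex and an adaptor for long runs, and a separate form, dynein-2, works inside cilia. Other kinesins anchor or shorten microtubules or act in the mitotic spindle.

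Each library held between 11098076 and 25552681 reads on genes, with a median of 20271086 in LSD-treated rats and 16815424 in controls. Levels are given as normalised RPM, the reads on a gene relative to all reads on genes after TMM scaling, and differences as log2 fold changes of LSD over saline with their standard error (SE). The p-values are those of edgeR's quasi-likelihood test, Benjamini-Hochberg adjusted over all 16605 genes, and a gene is said to have risen or fallen where this adjusted p is under 0.05. The 7 neuronal markers examined were all present. RPM is not corrected for transcript length, so levels of different genes are not compared.

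Most transport genes did not pass the test, and those that did moved in both directions. Of the 59 genes, 8 rose (13.6%, against 6.48% of all genes) and 2 fell (3.39%, against 8.54% of all genes), and the 10 together were 16.9%, beside 15.0% of all genes tested. The 8 were the dynein-2 heavy chain Dync2h1, the kinesins Kif2a, Kif3a, Kif20a, Kif21a, Kif23 and Kif27, and the dynein light intermediate chain Dync1li2. The 2 that fell were the dynactin subunit Dctn5 and the small dynein light chain Dynlrb1. Scaling by total reads in place of TMM gave 12 higher and 2 lower among these genes, and turned the split over all genes from 1076 higher and 1418 lower to 1504 higher and 858 lower. As shares of all genes these were 9.06% and 5.17%. At an unadjusted p under 0.05 there were 20 of the 59, beside 30.8% of all genes. Both groups of rats overlapped for each of the 59, and 0.193% of all genes did not overlap. Other settings gave 7 higher and 3 lower transport genes with median-ratio size factors (6.34% and 8.47% of all genes), 10 and 4 with DESeq2 (8.07% and 10.3%), and 9 and 2 with the replicate number as a block (8.16% and 9.67%). Without a read filter 4 rose and 2 fell (3.81% and 3.32% of all genes), with edgeR's default filter 10 and 2 (7.92% and 8.86%), and at equal depth 6 and 3 (6.42% and 6.91%).

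**Figure D1:**
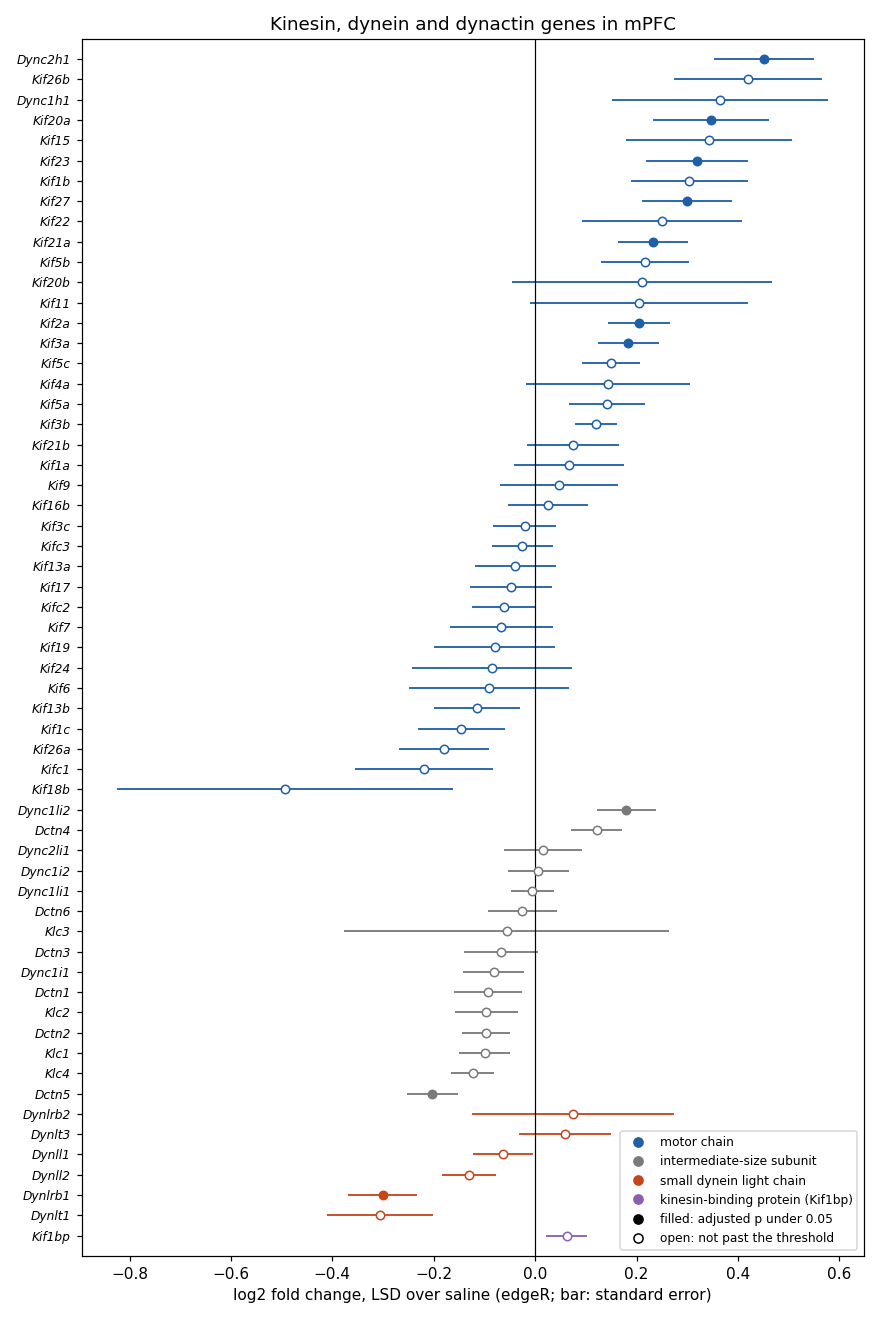
Log2 fold change of LSD over saline (x axis) for each of the 59 transport genes (y axis), with the standard error from edgeR as a bar, colours for the subunit class and filled points for an adjusted p under 0.05. The 7 filled motor chains lie between 0.18 and 0.45, the filled intermediate subunits Dync1li2 and Dctn5 at 0.18 and -0.20, and the filled light chain Dynlrb1 at -0.30.

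Promoter sequences are shown for 4 of the 10 genes that passed the test, to set genes that rose beside one that fell: the kinesin-2 motor Kif3a, the spindle kinesin Kif23, the dynein subunit Dync1li2 and the dynactin subunit Dctn5. Each is the 250 bases before the annotated start in RefSeq's GRCr8 assembly, read 5′ to 3′ on the gene's strand, from chr10:38226520-38226769 (+) for Kif3a, chr8:71320585-71320834 (-) for Kif23, chr19:538177-538426 (+) for Dync1li2 and chr1:186120165-186120414 (+) for Dctn5. Capitals mark letters that match, on either strand, the GC box GGGCGG, the CCAAT box CCAAT, the NRF1 motif (GCGC, any base, then TGCGC) or the X-box (GTT, any base, CC, any 2 bases, GG, any 2 bases, AC).
Kif3a: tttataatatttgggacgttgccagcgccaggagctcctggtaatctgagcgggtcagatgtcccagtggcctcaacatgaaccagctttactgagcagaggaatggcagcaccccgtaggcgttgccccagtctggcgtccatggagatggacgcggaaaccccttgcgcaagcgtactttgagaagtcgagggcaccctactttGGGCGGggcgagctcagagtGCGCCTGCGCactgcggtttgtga
Kif23: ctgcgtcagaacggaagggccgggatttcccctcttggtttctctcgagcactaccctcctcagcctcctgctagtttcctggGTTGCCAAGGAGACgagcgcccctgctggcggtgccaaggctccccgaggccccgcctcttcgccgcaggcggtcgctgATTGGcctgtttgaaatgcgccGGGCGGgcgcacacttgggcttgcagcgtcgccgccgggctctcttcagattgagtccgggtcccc
Dync1li2: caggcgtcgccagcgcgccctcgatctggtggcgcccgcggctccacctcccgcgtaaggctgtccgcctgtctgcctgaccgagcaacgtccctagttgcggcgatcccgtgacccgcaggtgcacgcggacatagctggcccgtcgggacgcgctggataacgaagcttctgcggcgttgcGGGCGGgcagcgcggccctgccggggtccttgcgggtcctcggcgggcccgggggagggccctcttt
Dctn5: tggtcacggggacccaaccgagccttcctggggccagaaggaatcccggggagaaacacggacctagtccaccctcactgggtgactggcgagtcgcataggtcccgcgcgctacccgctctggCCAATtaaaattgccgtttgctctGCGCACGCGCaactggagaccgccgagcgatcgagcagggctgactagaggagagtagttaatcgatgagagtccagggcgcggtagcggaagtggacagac

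Of the 59 genes, 46 had a promoter window in the RefSeq table (250 bases before to 50 bases after the start, 1 window for each gene), among them 7 of the 8 that rose and 1 of the 2 that fell. The GC box was in 34 of the 46 windows, in each of the 7 that belonged to genes that rose and not in that of Dctn5, while 34.9% of all 27457 windows and 59.2% of the 11605 windows of genes tested here held it. The CCAAT box was in 22 of the 46, Dctn5, Kif20a and Kif23 among them, beside 37.7% of all windows and 36.9% of those of genes tested. The NRF1 motif was in 7 of the 46, Kif3a and Dctn5 among them, beside 4.71% of all windows and 8.79% of those of genes tested. The X-box was in 3 of the 46 (Kif9, Kif23 and Dctn3), beside 1.30% of all windows and 1.39% of those of genes tested. The cAMP response element TGACGTCA was in 5 and the E-box CACGTG in 1, beside 1.91% and 6.65% of all windows. Among windows of genes tested the shares were 2.95% and 8.94%. Neither motif was in the window of a gene that passed the test. These are letter matches on GRCr8 and no measure of binding.

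Among the motor chains, 7 of 37 rose (18.9%, beside 6.48% of all genes) and 0 fell (beside 8.54%) at an adjusted p under 0.05. Their levels turn first on Dync2h1, the heavy chain of dynein-2, which returns cargo along the axoneme of cilia. It ranged from 12.5 to 21.8 normalised RPM in LSD-treated rats, with a median of 18.2, and from 9.78 to 15.6 in controls, with a median of 12.6. Of the 10 LSD-treated rats, 8 lay above the highest control, and rat 10 was the lowest of its group. Its log2 fold change was 0.45 (SE 0.099, adjusted p = 0.00763), a 1.37-fold higher level and the largest change among the 10 genes that passed. It passed in all 20 fits that left out 1 rat and under all 8 other settings. Dync2h1 had 128 to 514 reads in each library.

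The heavy chain of dynein-1, Dync1h1, which powers most retrograde transport in neurons, was more scattered. Its level ranged from 132 to 422 normalised RPM in LSD-treated rats, with a median of 332, and from 75.8 to 331 in controls, with a median of 270. The values of 3 libraries stood below all others, LSD rat 10 at 132, saline rat 2 at 128 and saline rat 9 at 75.8, while the other 17 rats lay between 242 and 422. Over all rats its log2 fold change was 0.36 (SE 0.21, adjusted p = 0.254), and it did not pass in any fit that left out 1 rat or under any of the 8 other settings. With those 3 libraries left out together, a choice made after their Dync1h1 values were seen, 13 of the 59 transport genes rose and 4 fell, beside 9.83% and 9.96% of all genes.

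The kinesin-1 heavy chains Kif5a, Kif5b and Kif5c, the motors of most fast anterograde transport, had positive differences, and none of the 3 passed the test. Kif5a lay between 1119 and 1707 normalised RPM after LSD (median 1501) and between 1090 and 1639 after saline (median 1328), a log2 difference of 0.14 (SE 0.074, adjusted p = 0.200). Kif5b, the form made in most cell types, ranged from 114 to 160 (median 139) and from 99.1 to 162 (median 113), a log2 difference of 0.22 (SE 0.087, adjusted p = 0.0927). Kif5c ranged from 756 to 932 (median 850) and from 623 to 856 (median 770), a log2 difference of 0.15 (SE 0.057, adjusted p = 0.0756). All 10 LSD-treated rats were above the control median for Kif5b, and 9 of 10 for Kif5a and for Kif5c, but the groups overlapped widely. The lowest control was rat 9 for Kif5a and Kif5c and rat 5 for Kif5b.

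Kinesin-2 drives transport in cilia and carries vesicles in axons and dendrites. Its subunit Kif3a ranged from 150 to 180 normalised RPM in LSD-treated rats, with a median of 167, and from 109 to 168 in controls, with a median of 148. All 10 LSD-treated rats were above the control median and 5 were above the highest control, saline rat 8, while the lowest value of all was that of saline rat 9. The log2 fold change was 0.18 (SE 0.060, adjusted p = 0.0427). This call held in 9 of the 20 fits that left out 1 rat: it was lost without LSD rat 3, 4, 5, 7 or 8 or saline rat 1, 3, 4, 5, 7 or 9, with an adjusted p of up to 0.0821, and it was lost with median-ratio size factors, without the read filter and with the correction for gene span. Its partner Kif3b had a log2 difference of 0.12 (adjusted p = 0.0558), whereas the values for Kif3c, the alternative partner, and for Kif17, the homodimeric kinesin-2 of dendrites, were -0.02 and -0.05 (adjusted p = 0.863 and 0.736).

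Kif21a, a kinesin-4 that stops microtubule growth at the cell cortex, ranged from 156 to 227 normalised RPM in LSD-treated rats, with a median of 192, and from 128 to 188 in controls, with a median of 168. Above the highest control were 7 of the 10 LSD-treated rats, and saline rat 9 was apart at the low end. The log2 fold change was 0.23 (SE 0.069, adjusted p = 0.0271), and the call was lost without LSD rat 3, 4 or 8 or saline rat 4 and with the span correction. Its relative Kif21b had a log2 difference of 0.08 (adjusted p = 0.617). Kif27, also placed in kinesin-4 and known from motile cilia, ranged from 5.5 to 8.36 normalised RPM (median 6.72) against 4.45 to 7.02 in controls (median 5.79). Of the LSD-treated rats, 9 lay above the control median and 4 above the highest control. The log2 fold change of Kif27 was 0.30 (SE 0.089, adjusted p = 0.0270), lost without LSD rat 4 or 8 and with the span correction. The annotation places a similar gene, Kif27l1, over it, so its reads are uncertain in their origin.

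Kif2a, a kinesin-13 that takes subunits off microtubule ends and restrains the growth of axon branches, ranged from 60.7 to 78.9 normalised RPM in LSD-treated rats, with a median of 65.0, and from 49.7 to 71.8 in controls, with a median of 57.8. All 10 LSD-treated rats were above the control median and 3 above the highest control. Its log2 fold change was 0.20 (SE 0.061, adjusted p = 0.0276), and it lost the call without LSD rat 8 (adjusted p = 0.0520) and with the span correction. Kif2a overlaps Dimt1 in the annotation, and since the strand setting of the counting is not given in the sources used here, reads of overlapping genes may have been shared.

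The kinesin-6 motors act at the spindle midzone in cytokinesis, and their genes were read at low depth. Kif23 had 18 to 71 reads in each library and ranged from 2.32 to 2.80 normalised RPM in LSD-treated rats (median 2.50) against 1.28 to 2.37 in controls (median 2.10). All LSD-treated rats were above the control median and 8 above the highest control. Its log2 fold change was 0.32 (SE 0.10, adjusted p = 0.0361), lost without LSD rat 3, 5 or 8 or saline rat 1, 3 or 4. At equal depth, in a single random draw of the reads, its log2 difference was 0.14 (adjusted p = 0.519). The call was also lost without the read filter (adjusted p = 0.0674) and with the span correction (0.0552). Kif20a had 28 to 138 reads and ranged from 2.73 to 5.72 (median 4.62) against 2.59 to 4.37 (median 3.53), with a log2 fold change of 0.35 (SE 0.11, adjusted p = 0.0422). That call held in 5 of the 20 fits that left out 1 rat, the fewest of the 10 genes, namely without LSD rat 1 or 10 or saline rat 7, 8 or 10. It was lost under 3 of the 8 other settings, at equal depth (log2 difference 0.27, adjusted p = 0.195), without the read filter (0.0558) and with the replicate block (0.0775). Kif20a overlaps Cdc23, a subunit of the anaphase-promoting complex. The 5 markers of dividing cells, which were all present, passed in 0 cases, and their summed level ranged from 4.62 to 6.996 normalised RPM in LSD-treated rats and from 4.17 to 7.18 in controls.

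The kinesin-3 motors Kif1a and Kif1b carry synaptic vesicle precursors and mitochondria. Kif1a ranged from 1125 to 1723 normalised RPM in LSD-treated rats and from 893 to 1743 in controls, with a log2 difference of 0.07 (SE 0.11, adjusted p = 0.724). Kif1b ranged from 455 to 707 and from 258 to 663, with a log2 difference of 0.30 (SE 0.12, adjusted p = 0.0775), and it passed with total-read scaling (0.0356) and with the replicate block (0.0488). For both genes the lowest rats were LSD rat 10 and saline rat 9, and the groups overlapped. The remaining motor chains that passed the filter had log2 differences between -0.49 and 0.42, and their adjusted p was above 0.05. The widest error was that of Kif18b (0.33), a kinesin-8 with 0 to 18 reads, which was also the gene nearest to the read filter on the inside, with 17 libraries at 5 reads or more. Next to it were Kif11 and Klc3 (18 libraries each) and Kif20b (19 libraries).

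On the outside of the filter were 7 genes, all kinesins. Kif2c had 86 reads in all and reached 5 in 8 libraries, Kif18a 73 reads and 6 libraries, Kif14 40 reads and 3 libraries, and Kif4b 50 reads and 1 library. Kif28p had 26 reads and Kif2b 2 reads, neither with a library at 5, and Kif12 had 0 reads in all 20 libraries. Several of these, such as Kif2c, Kif14 and Kif18a, act in cell division. No comparison was made for them.

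**Figure D2:**
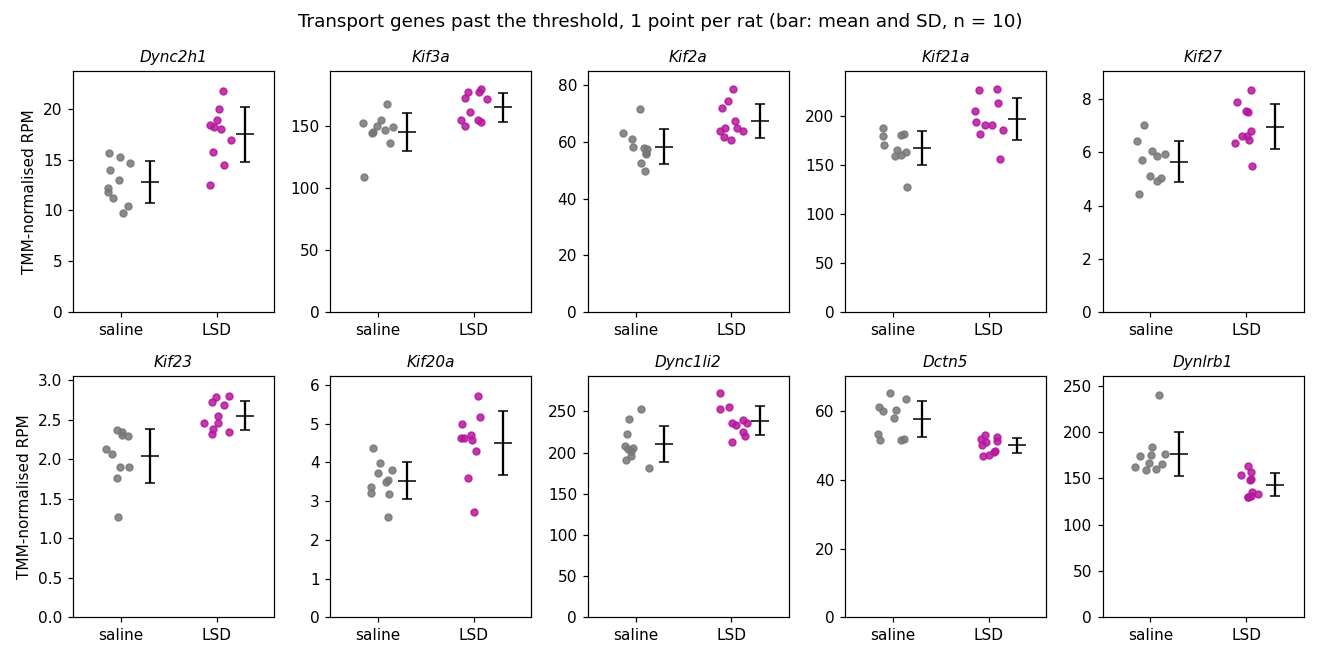
Normalised RPM (y axis, from 0) of the 10 transport genes that passed the test, with 1 point for each rat, controls in grey and LSD-treated rats in magenta, and the mean and SD of each group (n = 10) as bars. In Dync2h1 and Kif23, 8 LSD-treated rats lie above the highest control, in Dynlrb1 9 lie below the lowest control, and the groups overlap in every panel.

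Among the intermediate subunits, 1 of 15 rose and 1 fell, 6.67% each, beside 6.48% and 8.54% of all genes. Dync1li2, a light intermediate chain that ties dynein to its adaptors, ranged from 213 to 272 normalised RPM in LSD-treated rats, with a median of 236, and from 182 to 253 in controls, with a median of 205. All 10 LSD-treated rats were above the control median, and 3 were above the highest control, saline rat 2. The log2 fold change was 0.18 (SE 0.059, adjusted p = 0.0419), and it passed in 6 of the 20 fits that left out 1 rat, those without LSD rat 1, 2 or 6 or saline rat 2, 8 or 10. It passed under 7 of the 8 other settings, the exception being the fit with no read filter. Dync1li1, the alternative light intermediate chain, ranged from 42.4 to 50.8 in LSD-treated rats and from 43.4 to 51.7 in controls, with a log2 difference of -0.01 (adjusted p = 0.950).

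Dctn5 encodes a protein of the pointed end of dynactin, where some adaptors and cargoes bind. It ranged from 47.1 to 53.1 normalised RPM in LSD-treated rats, with a median of 50.7, and from 51.5 to 65.4 in controls, with a median of 59.1. All 10 LSD-treated rats were below the control median and 7 below the lowest control. Dctn5 fell by 0.20 on the log2 scale (SE 0.050, adjusted p = 0.0119), to 0.869 of the control level, in all 20 fits that left out 1 rat and under all 8 other settings. The other 5 dynactin genes did not pass. The log2 differences were -0.09 for Dctn1, the p150 arm that holds the microtubule, -0.10 for Dctn2, -0.07 for Dctn3, 0.12 for Dctn4 and -0.03 for Dctn6, with adjusted p between 0.0994 and 0.842. Dctn6, which also sits at the pointed end, ranged from 49.5 to 60.5 in LSD-treated rats and from 47.7 to 72.5 in controls.

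The dynein intermediate chains Dync1i1, which is largely neuronal, and Dync1i2 had log2 differences of -0.08 and 0.01 (adjusted p = 0.371 and 0.961). For Dync1i1 all 10 LSD-treated rats, between 195 and 237 normalised RPM, were below the control median of 245, but 4 controls lay among them. With the correction for gene span its difference became -0.20 (adjusted p = 0.0453). The kinesin light chains Klc1 and Klc2, which link kinesin-1 to cargo, had log2 differences of -0.10 each (adjusted p = 0.181 and 0.314), and none of the 4 light chain genes passed. All 10 LSD-treated rats were below the control median for Klc1, at 852 to 998 normalised RPM against 881 to 1081 in controls.

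Among the 6 small dynein light chains, 1 fell (16.7%, beside 8.54% of all genes) and 0 rose (beside 6.48%). Dynlrb1, a roadblock light chain that binds the intermediate chains, ranged from 130 to 164 normalised RPM in LSD-treated rats, with a median of 142, and from 159 to 240 in controls, with a median of 170. All LSD-treated rats were below the control median and 9 were below the lowest control, and saline rat 9 stood far above the other controls, the next of which was at 184. The gene fell by 0.30 on the log2 scale (SE 0.068, adjusted p = 0.00852), to 0.812 of the control level. The call held without saline rat 9, as in all 20 fits that left out 1 rat, with log2 values from -0.32 to -0.24, and under all 8 other settings.

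The remaining light chains did not pass. Dynlt1 lay between 5.64 and 9.20 normalised RPM after LSD (median 6.95) and between 6.99 and 12.3 after saline (median 8.52), with 5 LSD-treated rats below the lowest control and a log2 difference of -0.31 (SE 0.10, adjusted p = 0.0510). It passed under 3 of the 8 other settings, DESeq2 (adjusted p = 0.0290), median-ratio size factors (0.0477) and equal depth (0.0412). Dynll2 ranged from 815 to 1032 (median 957) and from 857 to 1142 (median 1023), with a log2 difference of -0.13 (SE 0.053, adjusted p = 0.0998). Dynll1, whose product also binds many proteins outside dynein, ranged from 191 to 227 (median 206) and from 175 to 252 (median 208), with a log2 difference of -0.06 (adjusted p = 0.504). Dynlt3 ranged from 67.4 to 96.1 and from 54.0 to 103, with a log2 difference of 0.06 (adjusted p = 0.711). Dynlrb2, the roadblock chain best known from cilia, had 5 to 27 reads in each library and a log2 difference of 0.08 (SE 0.20, adjusted p = 0.841).

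**Figure D3:**
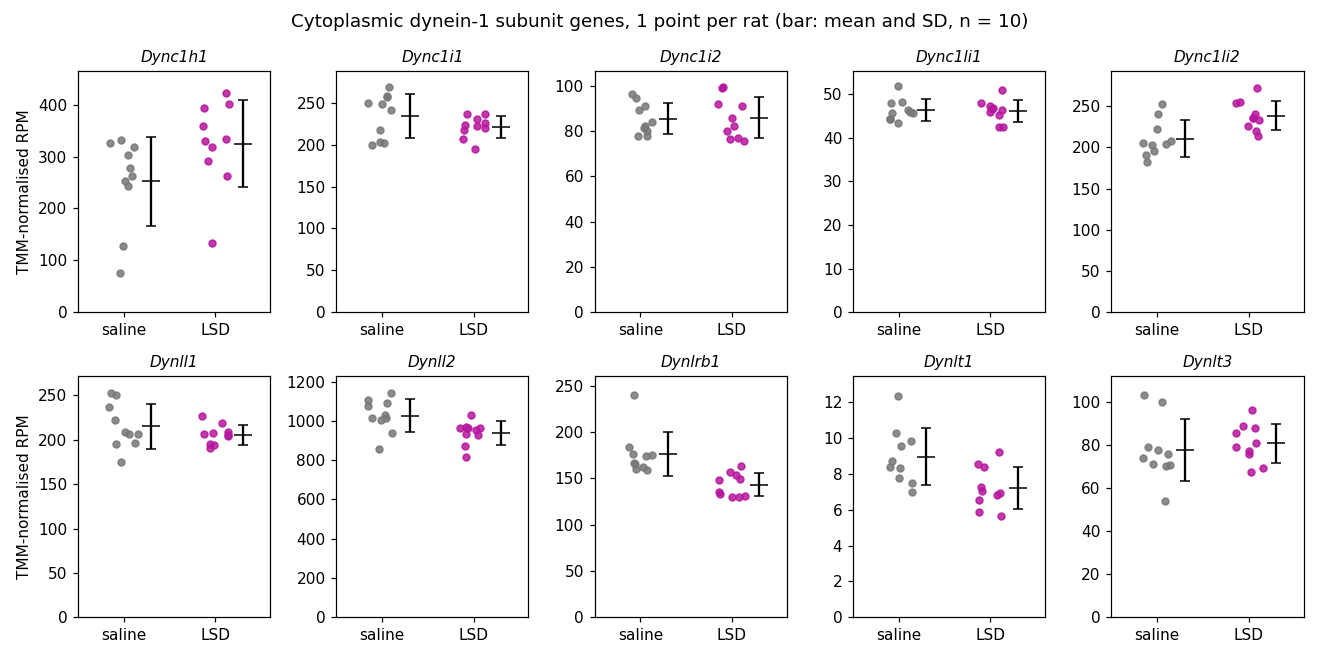
Normalised RPM (y axis, from 0) of 10 cytoplasmic dynein-1 subunit genes, with 1 point for each rat and the mean and SD of each group (n = 10) as bars. The heavy chain Dync1h1 has 3 rats at 132 or less, LSD rat 10 and saline rats 2 and 9, while Dynlrb1 is lower in LSD-treated rats (143 ± 12.6) than in controls (176 ± 23.8).

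Set side by side, the classes differed in their fold changes. The median log2 fold change was 0.12 for the 37 motor chains, -0.07 for the 15 intermediate subunits and -0.10 for the 6 small light chains, beside 0.00 for all genes tested. For the 35 kinesins without the dynein heavy chains Dync1h1 and Dync2h1, the median was 0.075. The values were positive for 23, 4 and 2 genes of the 3 classes, that is for 62.2%, 26.7% and 33.3% of them, beside 50.4% of all genes. The motor chains spanned -0.49 to 0.45, so each class held genes on both sides of 0. With total-read scaling, which shifts the median of all genes to 0.05, the 3 medians were 0.17, -0.02 and -0.05. No test was made of the classes, whose members share rats and libraries.

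The same difference was described rat by rat, as the mean deviation of a class from the average of all rats in log2(normalised RPM + 1). For motor chains minus small light chains this was 0.097 ± 0.11 in LSD-treated rats (SD, n = 10), from -0.13 to 0.22, and -0.097 ± 0.20 in controls, from -0.56 to 0.12. Of the LSD-treated rats, 9 lay above the control median of -0.070, and LSD rat 10 was the lowest of its group. The extreme was saline rat 9, which had the lowest motor chain mean (-0.23) and the highest light chain mean (0.33) of all 20 rats. The groups overlapped, and the spread was wider in controls. Over single genes the SD of log2 values was smaller in LSD-treated rats for 46 of the 59 (78.0%), beside 76.7% of all genes.

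**Figure D4:**
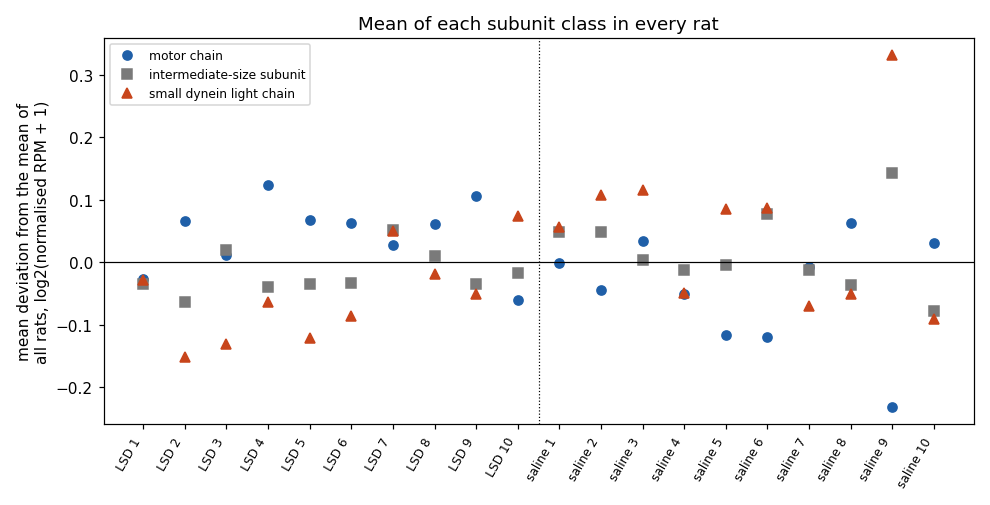
Mean deviation of each subunit class from the average of all rats, in log2(normalised RPM + 1) (y axis), for every rat (x axis), with circles for motor chains, squares for intermediate subunits and triangles for small dynein light chains. Saline rat 9 has the lowest circle (-0.23) and the highest triangle (0.33), and 8 of the 10 LSD-treated rats have circles above 0 against 3 of the 10 controls.

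The classes also differ in how much of the genome their genes cover, and in these libraries the fold change of a gene moved with that span. The span, from start to end in GRCr8, had a median of 63233 bases in the motor chains, 22904 in the intermediate subunits, 15166.5 in the small light chains and 24514 in the 14929 genes tested that had one. Across genes, which are not independent replicates, the Spearman rank correlation of span and log2 fold change was 0.36 over these 14929 genes, 0.38 over the 59 transport genes and 0.24 over the 37 motor chains. Among all genes under 20 kb, 1.56% rose and 15.4% fell, and among those of 100 kb or more, 17.2% rose and 2.49% fell. In between, 5.78% rose and 6.16% fell from 20 to 50 kb, and 13.5% rose and 3.02% fell from 50 to 100 kb. Of the transport genes, 1 of 16 rose and 1 fell under 20 kb (Kif20a and Dctn5), 3 of 21 rose and 1 fell from 20 to 50 kb, 2 of 11 rose from 50 to 100 kb, and 2 of 11 rose at 100 kb or more (Dync2h1 and Kif21a).

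When each rat's trend over span was taken out, the correlation over the transport genes was 0.10 and the medians of the 3 classes became 0.06, -0.05 and -0.10. Of the 8 genes that rose, Dync2h1, Dync1li2 and Kif20a still passed, and Kif2a, Kif3a, Kif21a, Kif23 and Kif27 did not. Both genes that fell still passed, and Dync1i1 was added to them. With 3 higher and 3 lower among the transport genes, 3.40% of all genes rose and 6.83% fell. What makes fold change follow span in these libraries was not tested.

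**Figure D5:**
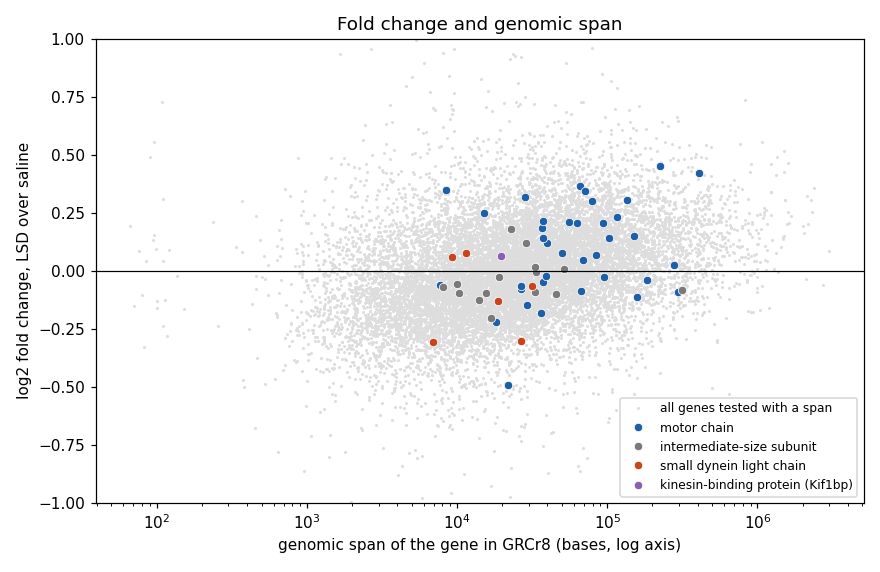
Genomic span in bases (x axis, log scale) against the log2 fold change of LSD over saline (y axis), with grey points for the genes tested that had a span and coloured points for the transport genes by class. Small light chains lie at or left of 31577 bases and motor chains reach 405645 bases, and 14 genes beyond ±1 on the y axis are not drawn.

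Transport also rests on adaptors and regulators with other symbols. A list of 55 such genes was drawn up with earlier results of these data known. The 52 that were tested had a median span of 48636.5 bases, beside 24514 over all genes tested that had one. Of the 52, 8 rose and 8 fell (15.4% each, beside 6.48% and 8.54% of all genes), together 30.8%, beside 15.0% of all genes. Of these, the following had higher levels in all 10 LSD-treated rats than the control median: the dynein adaptors Hook1 (log2 fold change 0.42, adjusted p = 0.00680), Hook3 (0.46, adjusted p = 0.0379) and Bicd1 (0.36, adjusted p = 0.0191), the motor scaffold Spag9 (0.28, adjusted p = 0.00917), the liprin Ppfia2 (0.31, adjusted p = 0.00676), which binds Kif1a, and Grip1 (0.20, adjusted p = 0.0434), which ties kinesin-1 to glutamate receptors. The kinesin recruiter Map7d2 (0.23, adjusted p = 0.0337) and the dynein-2 intermediate chain Wdr60 (0.19, adjusted p = 0.0419) also rose, each above the control median in 9 of 10. The other dynein-2 intermediate chain, Wdr34, fell by 0.27 on the log2 scale (adjusted p = 0.0123), from 18.3 ± 2.14 normalised RPM in controls to 15.1 ± 1.16 (SD, n = 10). The dynein-2 subunits that passed thus moved in both directions, although Wdr60 did not pass with the span correction (adjusted p = 0.131). The dynein-2 light intermediate chain Dync2li1 had a log2 difference of 0.02 (adjusted p = 0.920).

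Of the listed genes for the dynactin filament, whose pointed end holds Dctn5, 3 of 6 fell, beside 8.54% of all genes. These 6 were not set apart in advance and no test was made of them as a group, so their share carries no weight of its own. Of the 6 dynactin genes described above, 1 fell, Dctn5. The actin-related proteins Actr1a and Actr1b, which build the filament, fell by 0.14 (adjusted p = 0.0236) and 0.18 (adjusted p = 0.0286) on the log2 scale. Capzb, the capping protein at the barbed end of the filament, fell by 0.19 (adjusted p = 0.0172). For each of the 3, all 10 LSD-treated rats were below the control median. The other capping subunits Capza1 and Capza2 had log2 differences of 0.15 and 0.07 (adjusted p = 0.154 and 0.663), and Actr10, at the pointed end, of 0.03 (adjusted p = 0.833). Each of the 3 calls was lost under at least one other setting, Actr1a and Capzb with total-read scaling (adjusted p = 0.0740 and 0.0801) and Actr1b with the span correction (adjusted p = 0.0959). The remaining genes of the list that fell were the kinesin-1 scaffold Mapk8ip1 (-0.19, adjusted p = 0.0264), the kinesin recruiter Map7d1 (-0.18, adjusted p = 0.0237), the lysosomal GTPase Arl8a (-0.16, adjusted p = 0.0281), and Rilp (-0.38, adjusted p = 0.0284), which brings dynein to late endosomes. With the span correction 3 genes of the list rose (Hook1, Bicd1 and Spag9), beside 3.40% of all genes. In that fit 5 fell (Wdr34, Capzb, Actr1a, Map7d1 and Mapk8ip1), beside 6.83% of all genes. With total-read scaling Arl8a and Rilp no longer passed, while Ppfia1 and Nin rose (adjusted p = 0.0445 and 0.0422).

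Markers of other cells in the tissue were read beside these genes. None of the 6 oligodendrocyte markers passed, but all 6 had negative log2 differences, with a median of -0.35, and their summed level ranged from 2232 to 5761 normalised RPM in LSD-treated rats and from 2195 to 7479 in controls. Since Dync2h1, Kif3a and Kif27 are known from cilia, 9 ependymal and motile cilia markers were summed, which gave 27.2 to 34.9 in LSD-treated rats and 25.0 to 35.9 in controls, and none of the 9 passed. Their log2 differences went both ways, with a median of 0.16. Of the 9, 5 were positive, up to 0.45 for Dnah9 (adjusted p = 0.0529, or 0.0351 with total-read scaling and 0.125 with the span correction). The other 4 were negative, down to -0.40 for Tekt1 (adjusted p = 0.0652). An unadjusted p under 0.05 was found for 4 of the 9 and for 3 of the 6 oligodendrocyte markers, beside 30.8% of all genes. Of the 7 neuronal markers Tubb3, a tubulin of neuronal microtubules, fell by 0.30 on the log2 scale (adjusted p = 0.0218), and the other 6 did not pass. Of the 7, 4 had positive and 3 negative log2 differences, and 3 had an unadjusted p under 0.05. With the span correction Tubb3 did not pass (adjusted p = 0.0524), while Rbfox3 did (log2 difference -0.31, adjusted p = 0.0263). The 5 astrocyte, 5 microglia, 3 endothelial and 5 choroid plexus markers tested did not pass, and each marker in the matrix had reads, although the choroid plexus marker Folr1 was at 0 in saline rat 1. The part of cell composition in the changes of the transport genes was not tested.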

How the data were processed

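RNA from the mPFC of 20 rats was sequenced, with 1 library for each rat, and groups were taken from the sample labels. The authors aligned the reads to rn6 with HISAT2, counted them on genes with HTSeq and deposited raw counts without normalisation or filter. Versions, the gene annotation and the strand setting are not given in the sources used here. The matrix ends in 5 unnamed rows, which held 25.5% to 29.0% of all reads in a library column and were left out. No 2 libraries were identical.

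Genes that reached 5 reads in 10 or more libraries were tested with edgeR 4.0.16 in R 4.3.3 (TMM, quasi-likelihood F test, Benjamini-Hochberg adjustment over 16605 genes, threshold 0.05), checked on simulated counts. The precision is set by the spread between the 10 rats of a group and by the 11098076 to 25552681 reads of each library. Alternatives were median-ratio size factors, total-read scaling, DESeq2 1.42.0, 2 other read filters, the replicate number as a block, a correction for gene span (an offset for each rat from a smooth curve over span, centred so that TMM scaling was kept), reads drawn down to 11098076, and each rat left out. The reads were drawn down in a single random draw, so its own spread is not known. Spans and promoters came from RefSeq's GRCr8, matched by symbol, and stand in for rn6. The study text names DESeq2, which is an alternative here.

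The transport genes, subunit classes, adaptor list, marker lists and alternatives were chosen with earlier results of these data known. Named genes were all that passed the test, the core transport subunits, the genes at or outside the read filter, and the adaptor genes that passed. Protein sequences were not used here.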

Additional observations from a re-analysis of the deposited data

Results flagged for a closer look

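The 10 rats of each group were searched, for 35 of the transport genes, for a rat whose gap to its nearest neighbour, as a part of the whole range, was over Dixon's 95% limit for 10 values. Of the 70 groups of values, 2 had such a rat, and chance alone gives about 1 in 20. Both were saline rat 9. Its Dynlrb1 level was 240.3 normalised RPM, above the next control at 184, a gap of 0.695 of the range. Its Kif21a level was 127.6 normalised RPM, below the next control at 159, a gap of 0.533 of the range. Without saline rat 9 both genes passed the test as before.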

How the results depend on the processing

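The number of transport genes that rose changed with the processing, while Dync2h1, Dctn5 and Dynlrb1 passed in the direction reported under all 8 settings planned and in all 20 fits that left out 1 rat. Against 8 higher and 2 lower, median-ratio size factors gave 7 and 3, total-read scaling 12 and 2, DESeq2 10 and 4, the edgeR default filter 10 and 2, equal depth 6 and 3, no read filter 4 and 2, and the span correction 3 and 3. No sign reversal of a gene that passed was seen under these settings. Leaving out 1 rat moved the higher count between 1 and 11 and the lower between 2 and 4. The higher count was 1 without LSD rat 8, 3 without LSD rat 3 or 4 or saline rat 4, 4 without LSD rat 5 or saline rat 1 or 3, and 5 without saline rat 5 or 9, and the lower count was 4 without saline rat 2 or 10. Over all genes, the higher count of 1076 became 565 with the span correction and 659 to 1681 with 1 rat left out, and the lower count of 1418 became 858 with total-read scaling, 836 with no read filter and 907 to 1867 with 1 rat left out. The adaptor genes, 8 higher and 8 lower, became 3 and 5 with the span correction, beside 3.40% and 6.83% of all genes. Their lower count was 4 with total-read scaling and 2 with no read filter, beside 5.17% and 3.32% of all genes. Ppfia1 and Nin were added to their higher genes with total-read scaling. With 1 rat left out, the adaptor genes gave 4 to 12 higher and 2 to 10 lower. The median log2 fold change with 1 rat left out ran from 0.08 to 0.14 for motor chains, -0.090 to -0.015 for intermediate subunits and -0.12 to -0.08 for small light chains. With LSD rat 10 and saline rats 2 and 9 left out together, chosen after seeing the data, there were 13 higher and 4 lower transport genes and 1633 higher genes in all, and the intermediate median was 9.32e-05. Some settings had fewer rats or fewer genes, and the cause of these moves was not tested.

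Whether the replicate numbers of the labels pair the rats was not tested. Same-numbered rats deviated together with a mean correlation of 0.15 (-0.26 to 0.47), beside -0.016 for rats of different numbers. The same-number correlation was over 0.1 in 6 of 10 pairs, and 1 of 10 LSD-treated rats correlated best with its own number. With the replicate block 9 transport genes rose, without Kif20a and with Kif1b and Kif26b, and 2 fell, and over all genes 1355 and 1606. Classing the genes by protein length was not run, since protein sequences were not used here. Kif23 and Kif20a had few reads, 18 to 71 and 28 to 138 in each library. The SE did not follow the reads alone: Dync1h1, with 1506 to 8527 reads, had an SE of 0.21.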
